A study of Caenorhabditis elegans with 30 samples.

Results

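The 10 genes reported here make, lengthen or regulate fatty acids in Caenorhabditis elegans, and were picked by name from the 46170 features of a deposited expression table. They comprise the 7 fatty acid desaturase genes fat-1 to fat-7, the elongase gene elo-5, and the regulator genes sbp-1 and mdt-15. All 10 were found in the table and in the gene annotation, and all 10 lie on autosomes, namely chromosomes III, IV and V. The study asked how a histone H4 lysine 16 acetyltransferase, MYS-1, and dosage compensation shape the X chromosome, and for this it measured messenger RNA (mRNA-seq) and H4 lysine 16 acetylation (H4K16ac ChIP-seq) in whole larvae at the third larval stage (L3), collected after 24 h of growth.

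For mRNA-seq there were 4 libraries of wild-type XX hermaphrodites (strain N2), 4 of dpy-21(e428) XX hermaphrodites (strain EKM71), 5 of XO animals fed bacteria with an empty vector and 5 of XO animals labelled as fed mys-1 double-stranded RNA. Both XO groups are strain TY1072 and carry her-1(e1520) on V and sdc-2(y74) on X, mutations with which XO animals develop as hermaphrodites. DPY-21 is a member of the complex that lowers X expression in XX animals, and dpy-21 mutants are defective in this repression. The XX groups grew on standard plates and the XO groups on RNAi plates through 2 generations of feeding, so that strain, karyotype and bacteria cannot be told apart when an XO group is set against wild type. For ChIP-seq there were 3 ChIP and 3 input libraries each of wild-type XX and of the XO strain, whose labels do not mention RNAi feeding. The study's list of ChIP samples gives strain names other than TY1072 for replicates 2 and 3 of the XO ChIP, while the labels give TY1072 for all 3 and were followed, so that the strain behind part of the XO peaks is uncertain. Each mutant group rests on a single strain.

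The deposited expression value is the authors' mean over the libraries of a group in RPKM (reads per kilobase of transcript, scaled to the reads sequenced), with no value per library. No difference in expression below therefore has an error between replicates or a test, and the sequencing depth behind each mean is unknown. The XO group could be told from wild type by the RNA of the genes mutated in its strain, which does not show the mutations themselves. In wild-type XX and vector-fed XO animals, her-1 had 1.70 and 433.6 RPKM and sdc-2 had 4.03 and 0.0509 RPKM. The same check says nothing of dpy-21(e428), because dpy-21 had 29.6 RPKM in wild type and 30.1 in the mutant. The RNA of mys-1 went against its label, because it was higher, 51.7 against 15.7 RPKM, in the group fed mys-1 double-stranded RNA. That group is therefore called the libraries labelled mys-1(RNAi). The study checked depletion by a western blot of L3 larvae and reports that MYS-1 protein was no longer detected after the mys-1 feeding. Protein was not analysed here. The libraries do not keep the strand of a read, so RNA of the double-stranded trigger or of the overlapping gene npa-1 cannot be told apart from mys-1 messenger RNA. Genes that mark the adult stage, col-19 and the vitellogenin genes vit-1 to vit-6, were below 1 RPKM in all 4 groups.

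Worms can make all their polyunsaturated fatty acids from saturated ones, because they have a full series of desaturases, enzymes that insert double bonds into fatty acid chains. The delta-9 desaturases FAT-5, FAT-6 and FAT-7 place the first double bond, FAT-5 in palmitate and FAT-6 and FAT-7 mainly in stearate. FAT-2, a delta-12 desaturase, adds the next double bond to oleate, FAT-1 turns omega-6 into omega-3 fatty acids, and the front-end desaturases FAT-3 (delta-6) and FAT-4 (delta-5) complete the long polyunsaturated chains. ELO-5 lengthens branched-chain fatty acids. SBP-1 is the worm homologue of the mammalian sterol regulatory element binding proteins, and MDT-15 is a Mediator subunit that acts with SBP-1 and with the nuclear receptor NHR-49 to activate desaturase genes. The intestine is the main site of fat synthesis and storage in the worm.

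The division of labour among the desaturases can be read in their coding sequences. Membrane desaturases hold iron with boxes of histidines, and the last box is shown for each gene because its first residue separates the front-end enzymes from the rest. The 15 coding bases of the box were read from the WBcel235 genome, and capitals mark the codons of its first and last pair of residues that the pattern required, histidine (CAC or CAT) or glutamine (CAG).
fat-5: CACaactacCATCAC
fat-6: CACaacttcCATCAC
fat-7: CACaatttcCACCAC
fat-2: CACgtcgccCATCAC
fat-1: CACgttgccCATCAC
fat-3: CAGatcgagCACCAC
fat-4: CAGattgagCACCAT
The box lies on the plus strand at V:17726511-17726525 in fat-5, at IV:13326030-13326044 in fat-2 and at IV:13318367-13318381 in fat-1. It lies on the minus strand at IV:11914002-11914016 in fat-6 and at V:7151630-7151644 in fat-7. In fat-3 and fat-4 the coding bases are joined across an intron, between IV:9805769 and 9805828 and between IV:9801389 and 9801892. The box began with histidine in the 5 delta-9, delta-12 and omega-3 desaturases and with glutamine in the 2 front-end desaturases.

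Across the translated proteins, the closest pair was FAT-6 and FAT-7, with 86.1% identical residues over 338 aligned positions. FAT-5 was 65.5% identical to FAT-6 and 64.7% to FAT-7. FAT-1 and FAT-2 shared 53.9% of aligned residues, and FAT-3 and FAT-4 shared 46.5%. Between any 2 of these 3 subgroups the identity was between 22.7% and 29.6%. The desaturases therefore fall into the same 3 subgroups by sequence as by reaction, and results are given in that order.

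Because fat-6 and fat-7 are near copies, reads of one could be counted for the other. Their coding sequences were 84.1% identical, and the longest identical run was 44 bases, shorter than the 50-base reads. That stretch is printed because it is where the genes are hardest to tell apart, with the bases that differ in capitals, on the minus strand at IV:11914566-11914625 for fat-6 and at V:7152349-7152408 for fat-7.
fat-6: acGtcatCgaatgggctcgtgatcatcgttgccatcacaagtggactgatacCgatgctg
fat-7: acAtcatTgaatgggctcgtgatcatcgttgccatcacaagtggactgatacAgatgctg
No window of 50 bases was identical between the transcripts. With up to 2 mismatches, 58 of 1117 windows of fat-6 (5.19%) and 58 of 1077 windows of fat-7 (5.39%) matched the other gene. No window of fat-1, fat-2, fat-3, fat-4 or fat-5 matched another gene. For elo-5, 117 of 873 windows (13.4%) matched F41H10.3, a gene on the other strand that overlaps its end, and for sbp-1 the share that matched an overlapping gene was 0.149%. For mdt-15, 98 of 4221 windows (2.32%) matched another gene, 49 of them the overlapping gene R12B2.8, 47 an overlapping gene with no name in the table and 2 R12B2.12, which does not overlap it.

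The genes differed in level over more than 2 orders of magnitude, and 6 of them were among the top 10% of expressed genes. In wild-type XX larvae the order from high to low was fat-2, fat-1, fat-6, elo-5, fat-4, fat-3, mdt-15, fat-7, sbp-1 and fat-5, from 345.9 to 0.752 RPKM. The median of the 10 genes was 126.1 RPKM, and the median of the 14362 genes above 1 RPKM was 12.99 RPKM. The first 6 of the order were within the top 10% of genes above 1 RPKM, and the same count of 6 genes held in each of the other groups. fat-2 led in every group and fat-5 was last in every group, while the places between them changed. fat-6 stood in place 3 in wild type, 2 in dpy-21(e428) and 5 in both XO groups.

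**Figure D1:**
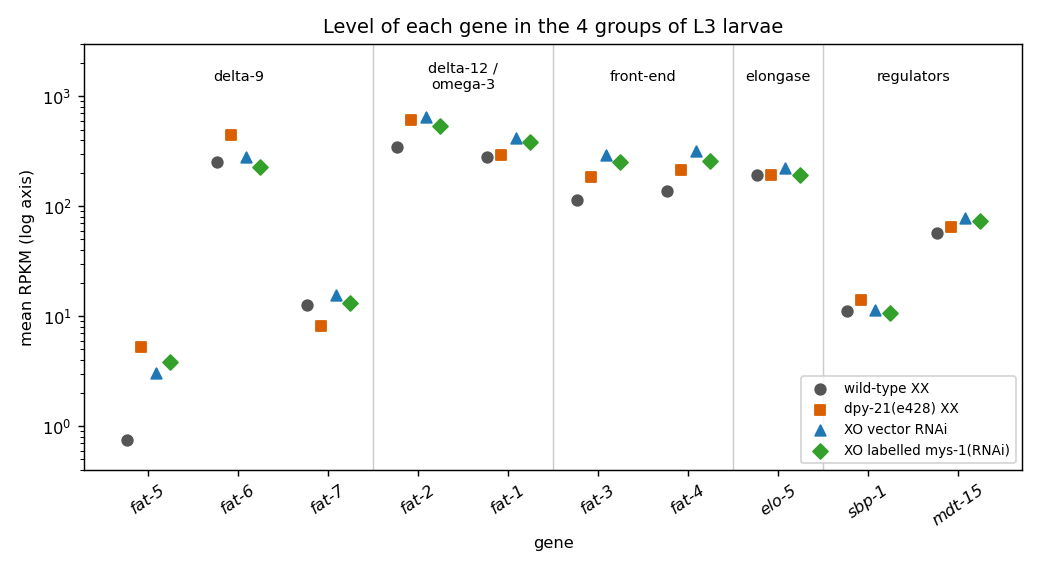
Authors' mean RPKM (log axis) of each gene in wild-type XX, dpy-21(e428) XX, vector-fed XO and XO labelled mys-1(RNAi) larvae, with genes ordered by role and 1 point per group mean. fat-2 is highest and fat-5 lowest in each group, and fat-7 is the only gene whose lowest point is dpy-21(e428).

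Of the delta-9 desaturases, fat-6 carried nearly all the RNA. fat-6 (IV:11913692-11915687, minus strand) had 255.2 RPKM in wild-type XX, 444.1 in dpy-21(e428) XX, 279.2 in vector-fed XO and 225.9 in XO labelled mys-1(RNAi). fat-7 (V:7151353-7153146, minus strand), whose product has the same main substrate, had 12.7, 8.08, 15.7 and 13.2 RPKM in the same order. fat-5 (V:17725004-17726818, plus strand), the palmitate desaturase, had 0.752, 5.26, 3.07 and 3.82 RPKM. Thus dpy-21(e428) held the highest value of fat-6 and of fat-5 and the lowest value of fat-7. fat-6 made up 94.995%, 97.1%, 93.7% and 93.0% of the summed RPKM of the 3 genes, and the ratio of fat-6 to fat-7 was 20.1 in wild type, 55.0 in dpy-21(e428), 17.8 in vector-fed XO and 17.1 in XO labelled mys-1(RNAi). The summed level of the 3 genes was 268.6, 457.5, 297.9 and 242.9 RPKM.

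fat-2 and fat-1 stand next to each other among the coding genes of chromosome IV, on the same strand and 5061 bp apart. fat-2 (IV:13323873-13326395), the delta-12 desaturase gene, had 345.9 RPKM in wild type, 607.6 in dpy-21(e428), 650.5 in vector-fed XO and 539.9 in XO labelled mys-1(RNAi). fat-1 (IV:13315644-13318811), the omega-3 desaturase gene, had 280.9, 292.1, 418.9 and 382.8 RPKM. Wild type was lowest for both genes, but dpy-21(e428) was close to wild type for fat-1 and close to the XO groups for fat-2. The ratio of fat-2 to fat-1 was accordingly 1.23, 2.08, 1.55 and 1.41 in the 4 groups.

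The front-end desaturase genes are also neighbours, with fat-4 796 bp before fat-3 on the plus strand of chromosome IV. fat-3 (IV:9803023-9806119), the delta-6 desaturase gene, had 114.1 RPKM in wild type, 186.2 in dpy-21(e428), 294.8 in vector-fed XO and 252.7 in XO labelled mys-1(RNAi). fat-4 (IV:9799429-9802226), the delta-5 desaturase gene, had 138.1, 215.6, 318.7 and 256.3 RPKM. The 4 groups stood in the same order for both genes, from wild type through dpy-21(e428) and the libraries labelled mys-1(RNAi) to vector-fed XO. Their ratio varied little, from 0.826 in wild type to 0.986 among libraries labelled mys-1(RNAi).

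elo-5 and the regulators varied least. elo-5 (IV:5374616-5377117, minus strand) had 191.1, 192.8, 221.6 and 194.4 RPKM in wild type, dpy-21(e428), vector-fed XO and XO labelled mys-1(RNAi). sbp-1 (III:11428367-11442566, minus strand) had 11.2, 13.9, 11.5 and 10.8 RPKM. Its end overlaps Y47D3B.6, which had 155.8 RPKM in wild type and 70.4 in dpy-21(e428), and its part in the sbp-1 values was not tested. mdt-15 (III:5828557-5833751, minus strand) had 57.8, 65.3, 77.7 and 74.1 RPKM. For these 3 genes the highest group mean was less than 1.5 times the lowest, and for fat-1 it was 1.49 times the lowest.

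Differences between groups were expressed as the log2 ratio of mean RPKM plus 1, which understates the change of low genes, and genes past 1.5-fold on that scale were counted beside all genes whose mean over both groups was above 1 RPKM. dpy-21(e428) was compared with wild type to ask which genes depend on DPY-21. In this comparison 5 of the 10 genes were past 1.5-fold higher, where 17.5% of 14791 tested genes were, and 1 was past 1.5-fold lower, where 9.48% were. fat-5 showed the largest difference, with a log2 ratio of 1.84 (6.99-fold in plain RPKM). fat-2, fat-6, fat-3 and fat-4 followed at 0.81, 0.80, 0.70 and 0.64, or between 1.56-fold and 1.76-fold in plain RPKM. fat-7 had a log2 ratio of -0.59 and stood just past the limit, a difference of 0.585 on this scale. fat-1, elo-5, mdt-15 and sbp-1 lay between 0.01 and 0.30, inside the limits. All 10 genes passed the filter, but fat-5 passed it only through dpy-21(e428), so that its count needs this group to be high, and without fat-5 the count was 4 of 9.

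The median log2 ratio of the 10 genes was 0.47, that of all tested genes 0.04 and that of autosomal genes -0.01. Without fat-5 the median of the other 9 genes was 0.30. X-linked genes had a median of 0.52, but none of the 10 genes is X-linked. Higher levels of fat-2, fat-3, fat-4 and fat-6 were not extreme among all genes, of which between 11.8% and 15.8% had the same or a larger log2 ratio. For fat-5 this share was 3.24%.

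**Figure D2:**
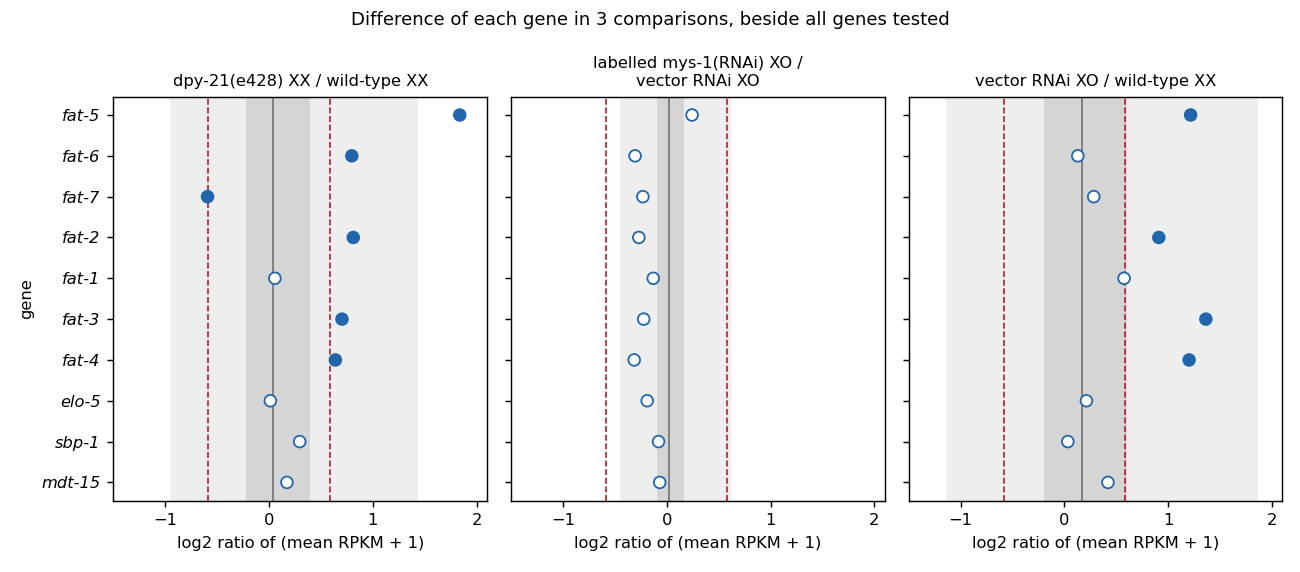
Log2 ratio of mean RPKM plus 1 for each gene in the 3 comparisons. The dark and pale bands hold the middle 50% and 90% of all genes tested, the grey line is their median, dashed lines mark 1.5-fold, and filled points are past it. dpy-21(e428) has 5 genes past the upper line and fat-7 at the lower one, the libraries labelled mys-1(RNAi) have none, and vector-fed XO against wild type has 4 past the upper line.

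The libraries labelled mys-1(RNAi) were compared with vector-fed XO to ask which genes depend on MYS-1. None of the 10 genes was past 1.5-fold in either direction, where 5.28% of 15785 tested genes were higher and 3.6% were lower. All of them except fat-5 had a slightly lower mean among libraries labelled mys-1(RNAi). The log2 ratios of these 9 genes were between -0.31 for fat-4 and -0.07 for mdt-15, and fat-5 had 0.24. The median of the 10 genes was -0.20 and that of all tested genes 0.02, while 43.9% of all tested genes had a ratio below 0. Each gene lay within the middle 90% of all tested genes, which reached from -0.44 to 0.61. In plain RPKM the 9 lower genes had between 0.804 and 0.954 of the vector-fed level.

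Vector-fed XO larvae were set against wild-type XX larvae as the difference between the backgrounds. Here 4 of the 10 genes were past 1.5-fold higher, where 25.2% of 15240 tested genes were, and none was past 1.5-fold lower, where 11.1% were. The genes past the limit were fat-3 at 1.36 (2.58-fold in plain RPKM), fat-5 at 1.22 (4.08-fold), fat-4 at 1.20 (2.31-fold) and fat-2 at 0.91 (1.88-fold). fat-1 lay just inside the limit at 0.57, and mdt-15, fat-7, elo-5, fat-6 and sbp-1 lay between 0.42 and 0.03. fat-5 again passed the filter through its higher group, and without it the count was 3 of 9.

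All genes tended to be higher in vector-fed XO by these values, with a median log2 ratio of 0.17. Relative to that median, fat-3, fat-5, fat-4 and fat-2 stood at 1.20, 1.05, 1.03 and 0.74 and were still past the limit, fat-1 stood at 0.41, and fat-6 and sbp-1 changed sign to -0.04 and -0.13. Of all genes past 1.5-fold, 69.3% were higher before and 57.0% after this centring. The comparisons share groups, wild type in the first and the last and vector-fed XO in the second and the last. Side by side, fat-6 had log2 ratios of 0.80 in dpy-21(e428) against wild type and 0.13 in vector-fed XO against wild type, fat-7 had -0.59 and 0.28, and fat-1 had 0.06 and 0.57. fat-2, fat-3, fat-4 and fat-5 were past 1.5-fold higher in both. Both ratios are taken over the same wild-type mean, so a low wild-type mean raises both. The share of all genes past the limit in both was not counted, and fat-5 passed each filter only through its higher group.

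Other genes of lipid metabolism were taken from lists of pathways. The counts of these and of the marker lists below stand beside the shares of all tested genes past 1.5-fold. In dpy-21(e428) these shares were 17.5% higher and 9.48% lower, and among libraries labelled mys-1(RNAi) 5.28% and 3.6%. For vector-fed XO against wild type they were 25.2% and 11.1%. Of the genes that make fatty acids and supply electrons to desaturases, 1 of 7 was past 1.5-fold higher in dpy-21(e428). This was acly-2, which encodes an ATP-citrate lyase, with 10.2 and 16.5 RPKM in wild type and the mutant. In the same comparison 6 of the 7 had a log2 ratio above 0, where 54.3% of all tested genes did. The median of the 7 was 0.47. In vector-fed XO against wild type, 3 of 7 were past 1.5-fold higher and none lower. These were acly-2 with 10.2 and 30.5 RPKM in wild type and vector-fed XO, pod-2, which encodes acetyl-CoA carboxylase, with 90.1 and 139.5, and fasn-1, which encodes fatty acid synthase, with 117.7 and 179.6. Relative to the median of all genes in that comparison, only acly-2 of these 3 would stay past the limit. Among libraries labelled mys-1(RNAi) none was past 1.5-fold. There 6 of 7 had a log2 ratio below 0, where 43.9% of all tested genes had one, and the median was -0.21.

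Fatty acid oxidation genes stood on the other side in dpy-21(e428). Of 13 tested, 5 were past 1.5-fold lower and none higher. A log2 ratio below 0 was found for 12, where 45.7% of all tested genes had one, and the median was -0.49. The 3 with the largest ratios were acdh-12, which had 78.5 RPKM in wild type and 43.3 in the mutant, ech-6, which encodes an enoyl-CoA hydratase, with 504.2 and 287.4, and cpt-2, which encodes a carnitine palmitoyltransferase, with 98.4 and 60.3. Among libraries labelled mys-1(RNAi) none of 14 was past 1.5-fold. In vector-fed XO 3 of 14 were higher and 1 lower than in wild type, and acs-2, an acyl-CoA synthetase gene activated by NHR-49 on fasting, had 7.35 RPKM in wild type and 58.4 in vector-fed XO.

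Of 9 genes of phosphatidylcholine synthesis, a pathway whose products feed back on SBP-1, 4 were past 1.5-fold higher in dpy-21(e428) and none lower. ckb-2, a choline kinase gene, had 19.8 RPKM in wild type and 65.7 in the mutant, pmt-1, which encodes a phosphoethanolamine methyltransferase, had 142.6 and 315.5, and sams-1, which encodes S-adenosylmethionine synthetase, had 595.7 and 1304. The remaining one, pcyt-1, a gene of the same pathway named after its values were seen, had 51.5 and 91.9 RPKM. sams-1 and pcyt-1, 2 of the 4, lie on X, where the median log2 ratio was 0.52. None of the 9 was past 1.5-fold among libraries labelled mys-1(RNAi), and 2 were higher and 1 lower in vector-fed XO against wild type, or 1 higher and 2 lower relative to the median of all genes.

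The list of fatty acid elongation, which holds other elongases and the reductases and the dehydratase of the elongation cycle, had no gene past 1.5-fold higher in any comparison. Of 9 tested, 2 elongase genes were past 1.5-fold lower in dpy-21(e428), elo-9 with 27.9 and 15.3 RPKM and elo-4 with 44.5 and 27.5. elo-3 was past it in vector-fed XO against wild type, with 134.3 and 232.3 RPKM, and relative to the median of all genes elo-4 and elo-9 were as well. elo-6, which works with elo-5 on branched chains and lies 9511 bp from it, had 341.4, 325.2, 389.4 and 359.2 RPKM in wild type, dpy-21(e428), vector-fed XO and XO labelled mys-1(RNAi).

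Among 17 further lipid regulators, 1 was past 1.5-fold higher in dpy-21(e428), aak-2 on X, which encodes a catalytic subunit of the AMP-activated kinase, with 35.2 and 57.5 RPKM. In vector-fed XO against wild type 5 were higher and 2 lower, and relative to the median of all genes 2 were higher and 2 lower. The largest ratios were those of klf-3, a Krüppel-like factor gene, with 17.5 and 7.33 RPKM in wild type and vector-fed XO, nhr-62 with 2.40 and 6.23, and nhr-25 with 37.4 and 18.4. nhr-49, whose product acts with MDT-15, was among the 5 higher genes, with 63.5 and 100.4 RPKM, but not among the 2 that remained after centring, and nhr-80, another nuclear receptor gene tied to delta-9 desaturases, had 16.02 and 16.72. nhr-49 and nhr-80 were picked from their list for their link to the desaturases. Of 21 genes listed as Mediator subunits beside mdt-15, none was past 1.5-fold in dpy-21(e428) or among libraries labelled mys-1(RNAi), and 2 were lower in vector-fed XO, mdt-18 with 21.6 and 11.9 RPKM in wild type and vector-fed XO and mdt-21 with 14.4 and 8.78.

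**Figure D3:**
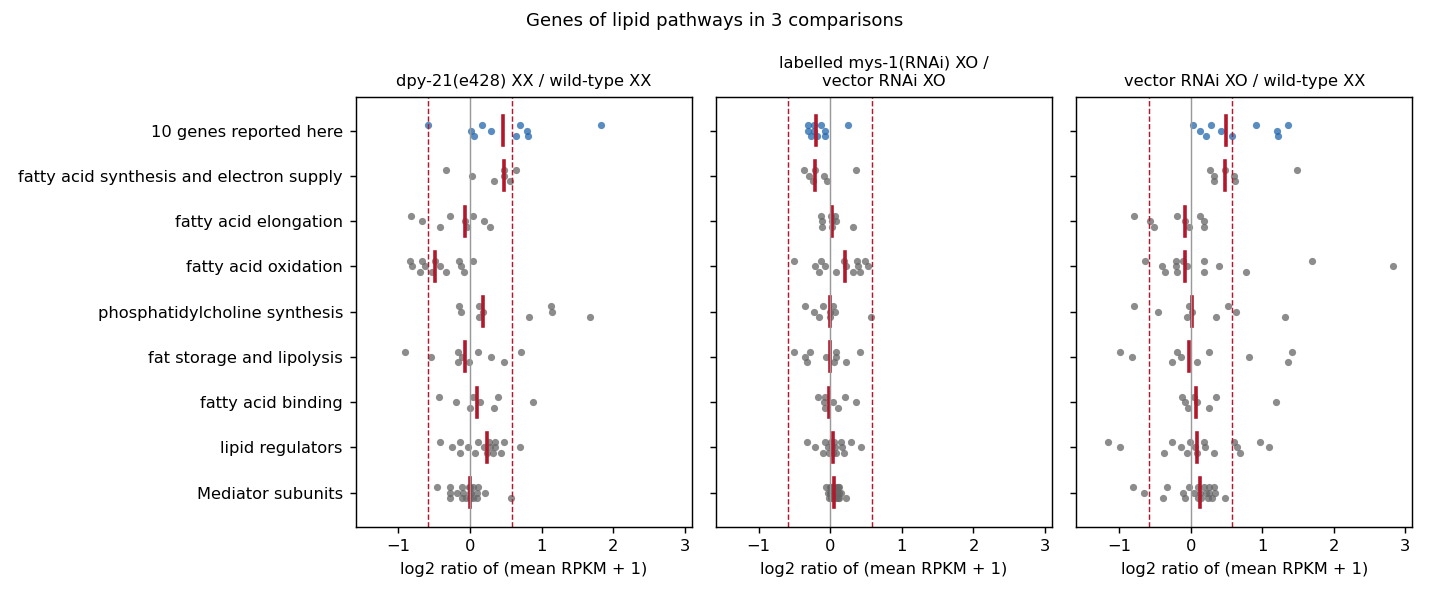
Log2 ratio of mean RPKM plus 1 of each tested gene of the lipid lists in the 3 comparisons, with 1 point per gene, a red bar at the list's median and dashed lines at 1.5-fold. In dpy-21(e428) the 10 genes reported here have a median of 0.47, or 0.30 without fat-5. The genes of synthesis and electron supply have one of 0.47 and the oxidation genes one of -0.49. Among libraries labelled mys-1(RNAi) these 3 medians are -0.20, -0.21 and 0.20.

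Smaller lists were also counted. Of 10 storage and lipolysis genes tested in dpy-21(e428), 1 was past 1.5-fold higher, lipl-2 with 7.55 and 13.1 RPKM, and 1 lower, lipl-1 with 6.73 and 3.12. Of 8 fatty acid binding proteins 1 was higher, lbp-1 on X with 32.9 and 61.5 RPKM. In vector-fed XO against wild type, 3 storage and lipolysis genes were higher and 2 lower of 10, and 1 fatty acid binding gene of 8 was higher. Of all tested genes 25.2% were higher and 11.1% lower there. Of the 3 genes of branched-chain fatty acid supply found in the table, bcat-1 on X was higher in dpy-21(e428), with 150.1 and 229.6 RPKM, though not relative to the median of all genes, and none was past 1.5-fold elsewhere. Among libraries labelled mys-1(RNAi) none of these lists had a gene past 1.5-fold.

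Whole larvae mix tissues, and in such samples fewer cells of a type and less RNA per cell cannot be told apart. Of 9 intestine markers, 2 were past 1.5-fold lower in dpy-21(e428), ges-1 with 19.3 and 10.7 RPKM and pho-1 with 70.2 and 43.4, and none was higher. In vector-fed XO against wild type 1 intestine marker was higher, vha-6 with 135.6 and 244.8 RPKM, and relative to the median of all genes act-5 and elt-2 were lower. The sum of the 9 markers was 4384, 4191, 4276 and 4569 RPKM in wild type, dpy-21(e428), vector-fed XO and XO labelled mys-1(RNAi). Most of it came from asp-1 and act-5, with 2636 and 1152 RPKM in wild type, so it says little of the other markers. In dpy-21(e428) against wild type 8 of the 9 had a log2 ratio below 0 and 1 above, where 45.7% of all tested genes were below 0. Of 6 hypodermis markers 3 were past 1.5-fold lower and none past it higher in dpy-21(e428). The lower ones were the collagen genes dpy-13 with 4243 and 2017 RPKM, rol-6 with 1143 and 565.3 and sqt-3 with 4544 and 2665. The other 3, dpy-7 on X, lin-26 and wrt-10, had log2 ratios of 0.32, 0.29 and 0.19. In vector-fed XO 3 hypodermis markers were lower and 2 higher, or 1 higher relative to the median of all genes. Of 5 body wall muscle markers 4 were higher in vector-fed XO and none in dpy-21(e428). Of 5 neuron and 6 germ line markers none was past 1.5-fold in dpy-21(e428), and 1 of each was higher in vector-fed XO, mex-5 with 2.12 and 6.81 RPKM and unc-64 with 65.1 and 100.3, of which unc-64 was inside the limit relative to the median of all genes. Among libraries labelled mys-1(RNAi) no intestine, hypodermis, muscle or neuron marker was past the limit, and mex-5 lay just inside it, with 6.81 RPKM in vector-fed XO and 10.7 in the labelled group.

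Genes of the moulting cycle, which rise and fall within each larval stage, also differed. In dpy-21(e428) 1 of 6 was past 1.5-fold higher, dpy-6 with 6.42 and 41.6 RPKM. It lies on X, where the median log2 ratio was 0.52. Another 2 of the list were lower, mlt-10 with 180.8 and 68.2 and mlt-8 with 711.1 and 455.1. In vector-fed XO against wild type 4 were higher and 1 lower, or 3 and 2 relative to the median of all genes, and among libraries labelled mys-1(RNAi) none was past the limit. acdh-1, an acyl-CoA dehydrogenase gene that responds to the bacterial diet, had 1136 RPKM in wild type, 351.5 in dpy-21(e428), 596.1 in vector-fed XO and 373.2 in XO labelled mys-1(RNAi). It was past 1.5-fold lower in all 3 comparisons. The other 3 tested genes of the diet list, alh-8, metr-1 and mmcm-1, were not past the limit in any comparison, and in vector-fed XO against wild type they had log2 ratios of 0.37, 0.28 and 0.52, of the opposite sign to that of acdh-1 at -0.93. The part of tissue make-up, of the time within the larval stage and of diet in the desaturase differences was not tested.

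H4K16ac is the mark that MYS-1 deposits, and the study mapped it to ask where on the genome it lies. The authors called broad peaks on all replicates of a background together, so replicates cannot be compared, and the lists give position alone. There were 8734 peaks covering 30.6 Mb in wild-type XX and 15186 peaks covering 36.4 Mb in XO, with median widths of 1345 and 906 bp. In XX, 4 of the 10 genes had a peak within the 500 bp upstream of their start, beside 63.6% of autosomal genes above 1 RPKM. In XO the count was 5, beside 65.1%. On the gene itself a peak was found for 4 of the 10 genes in XX, beside 70.3% of such genes, and for 7 in XO, beside 73.6%. For the XO shares, expression was that of vector-fed XO larvae, while the labels of the XO ChIP do not mention RNAi feeding. fat-5, with 0.752 RPKM in wild type, is outside the XX class but is counted among the 10. Of autosomal genes above 100 RPKM, 76.4% in XX and 79.5% in XO had an upstream peak. The 6 genes of this class reported here are fat-1, fat-2, fat-3, fat-4, fat-6 and elo-5. Among them fat-1, fat-2, fat-3 and fat-4 had such a peak in XX, and fat-2, fat-3, fat-4 and fat-6 in XO.

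The 4 genes with peaks in XX were the pairs of neighbours. A single peak of 14675 bp (IV:9793237-9807911) covered fat-4, fat-3 and the 796 bp between them in XX, and a peak of 12597 bp (IV:9793094-9805690) covered fat-4 and 86.1% of fat-3 in XO. A peak of 7930 bp in XX (IV:13317224-13325153) reached from within fat-1 across the gap into fat-2, and a second, of 7665 bp (IV:13308770-13316434), covered the start of fat-1. In XO the peaks there were narrower, 1149 bp over the start of fat-2 (IV:13323605-13324753) and 559 bp within fat-1 (IV:13315737-13316295), beginning 93 bp after its start. Peaks covered 75.1% of fat-1 in XX and 17.6% in XO, and 50.8% and 34.9% of fat-2. The 4 genes share 3 peaks in XX and are therefore not 4 separate observations.

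The delta-9 desaturase genes had little of the mark by these lists. No peak lay on fat-5, fat-6 or fat-7 in either background. The peak nearest to fat-7 was 23123 bp away in XX and 23159 bp in XO, and that nearest to fat-5 was 66185 and 118991 bp away. fat-6 had no peak within 4245 bp in XX, and in XO a peak of 840 bp (IV:11915814-11916653) ended 127 bp before its start. The same peak covers the start of ZK822.9, a gene on the opposite strand with a gap of 259 bp to fat-6. ZK822.9 had 0 RPKM in wild type and 1.93 in vector-fed XO. Which of the 2 genes the peak belongs to was not tested. fat-6 thus stood among the most highly expressed genes with no peak on it, as did elo-5 in XX, where the nearest peak lay 2 bp from the gene. In XO a peak of 183 bp (IV:5374501-5374683) overlapped 2.72% of elo-5. That peak lies wholly within F41H10.3 (IV:5369801-5374777), the gene that overlaps the end of elo-5. sbp-1 and mdt-15 had peaks only in XO. A peak of 1531 bp (III:11441254-11442784) lay over the start of sbp-1 and another of 585 bp at its end, and one of 4717 bp (III:5827660-5832376) covered 73.5% of mdt-15. Absence from a list of called peaks says only that no peak was called.

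**Figure D4:**
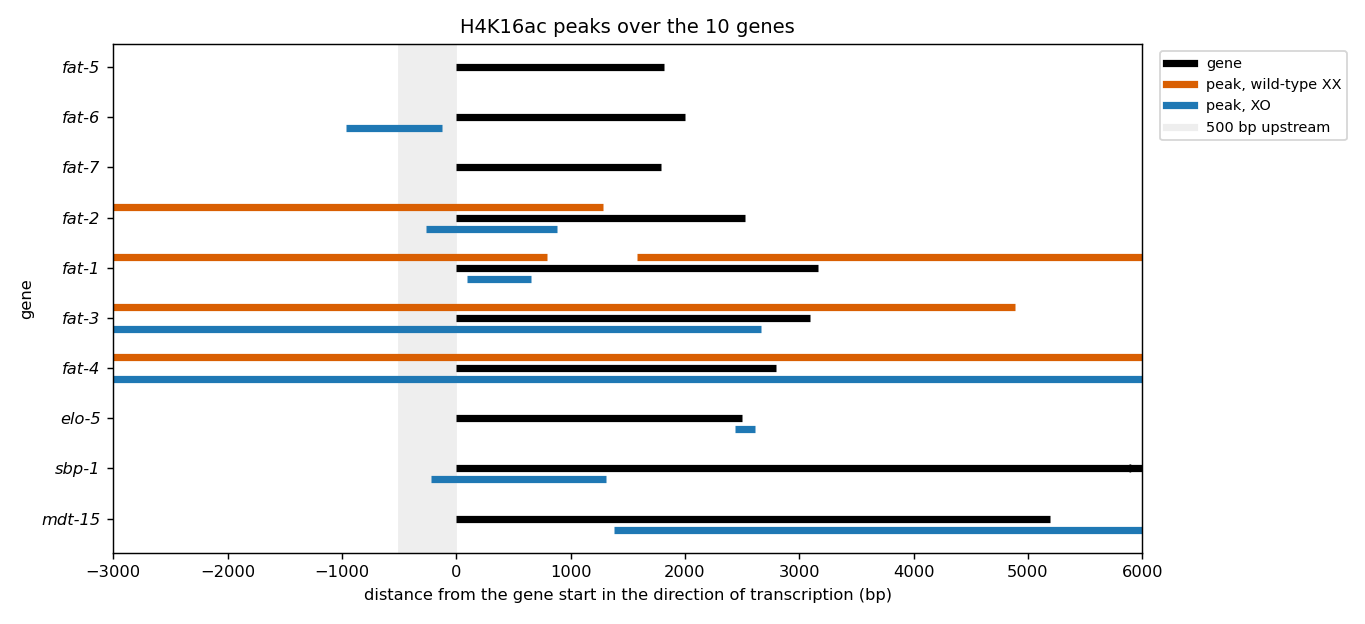
H4K16ac peaks that touch each gene or its 500 bp upstream, by distance from the gene start in bp, in wild-type XX (orange) and XO (blue); black bars are the genes, and long peaks and sbp-1, whose second XO peak lies at its end, run past the plot's edges. Wide peaks lie over fat-1 to fat-4 in XX, and none touches fat-5 or fat-7 in either background.

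The upstream sequences were searched for 4 motifs on both strands in the 300 bp before each gene's start. As for the peaks above, this is the annotated gene start, and where transcription begins was not mapped. TGATAA, bound by intestinal GATA factors, was found in 3 of the 10 genes, fat-2, elo-5 and sbp-1, and in 30.7% of the 19973 windows of protein-coding genes. CACGTG, the E-box, was found in fat-1, at 289 and 128 bp before the start, and in 5.74% of all windows. GTAAACA, bound by FOXO factors, was found in fat-4 and in 5.01% of all windows. TCACNCCAC, the sterol regulatory element bound by the mammalian homologues of SBP-1, was found in fat-5 and elo-5 and in 0.506% of all windows. The matches are printed with 15 bases on either side and the motif in capitals, at V:17724797-17724835 (plus strand, 192 bp before the start) for fat-5 and at IV:5377236-5377274 (minus strand, 142 bp before the start) for elo-5, where it reads on the opposite strand.
fat-5: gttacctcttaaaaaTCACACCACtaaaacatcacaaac
elo-5: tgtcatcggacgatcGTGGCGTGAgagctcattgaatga
The log2 ratios of these genes were unlike, 1.84 for fat-5 and 0.01 for elo-5 in dpy-21(e428). A match is a description of the letters and not a bound site.

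fat-6 and fat-7 had none of the 4 motifs in these windows, yet their upstream sequences resembled each other. Of 286 aligned bases 61.9% were identical, and 4 identical runs of 8 or more bases, in the same order in both, held 44 bases. The windows are printed to show what is shared upstream of a pair that differed in opposite directions in dpy-21(e428), with those runs in capitals, on the minus strand at IV:11915688-11915987 for fat-6 and at V:7153147-7153446 for fat-7.
fat-6: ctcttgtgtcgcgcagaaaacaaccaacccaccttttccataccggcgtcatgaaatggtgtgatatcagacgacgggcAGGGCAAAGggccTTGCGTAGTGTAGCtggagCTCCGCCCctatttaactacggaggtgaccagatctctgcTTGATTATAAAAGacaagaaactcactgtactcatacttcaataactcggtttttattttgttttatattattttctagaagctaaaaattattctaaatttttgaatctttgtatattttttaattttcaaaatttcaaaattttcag
fat-7: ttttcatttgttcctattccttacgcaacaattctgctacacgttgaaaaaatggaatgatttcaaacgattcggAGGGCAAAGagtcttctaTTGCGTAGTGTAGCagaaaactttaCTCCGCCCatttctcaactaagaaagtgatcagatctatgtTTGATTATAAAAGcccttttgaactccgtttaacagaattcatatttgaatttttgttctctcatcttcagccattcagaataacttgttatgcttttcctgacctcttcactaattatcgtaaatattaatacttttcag
The longest run, 14 bases, begins 208 bp before the start of fat-6 and 207 bp before that of fat-7. The next longest, 13 bases, begins 149 and 141 bp before the starts. In XO the upstream peak at fat-6 covered all 4 runs and ended 127 bp before the start, and no peak was called at fat-7.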

How the data were processed

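The authors trimmed the 50-base single-end reads of non-stranded libraries with Trim Galore, aligned them with TopHat to genome version WS235, allowing up to 20 hits per read, and computed RPKM with Cufflinks (2.2.1), which shares reads with several hits among genes. The deposited table holds the mean RPKM of each group. A second deposited table, of the authors' DESeq2 fold changes and p-values, was not used. For ChIP-seq the authors aligned reads with Bowtie (1.1.1) and called broad peaks with MACS2 (2.1.0) on pooled replicates, and the deposited peak positions are in bp.

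Log2 ratios used a pseudocount of 1 RPKM, and genes needed a mean above 1 RPKM over the 2 groups. Gene positions came from Ensembl release 115 on WBcel235, the assembly of WS235, in which 45871 of 46170 identifiers were found. Proteins were translated from the coding sequence of that genome and aligned globally with BLOSUM62 (Biopython 1.88), and 50-base windows were matched with BWA (0.7.19). The steps were tested on simulated data. The 10 genes and all lists were chosen with earlier results of these data known. From each list up to 3 genes per comparison were named, those with the largest ratio past 1.5-fold, and genes named for another reason are said to be so. Alternatives covered the pseudocount, the filter, the fold limit, centring, the promoter length and the overlap.
Counts of list genes after centring and the median without fat-5 were added after seeing the data.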

Additional observations from a re-analysis of the deposited data

How the results depend on the processing

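The values are group means, so no result has an error between replicates, and depth cannot be set against any value. No paired analysis was possible because the deposited table has no column per library, and leaving out single replicates could not be run for the same reason. Of 36 counts of genes under alternatives, 35 stayed within 1.5 times the reported count. The exception was the count in dpy-21(e428) against wild type at a fold limit of 2. There 1 of the 10 genes, fat-5, remained past the limit in place of 6. Of all tested genes 8.70% were higher and 4.63% lower at that limit, so the count was near the share of all genes. fat-5 passed the filter only through dpy-21(e428). Of 183 log2 ratios of single genes under alternatives, 176 kept their sign and their side of the 1.5-fold limit. In dpy-21(e428) against wild type, elo-5 turned to -0.027 when centred on the median of all genes, and fat-7 came inside the limit, at -0.580, when centred on the autosomal median. With fat-6 and fat-7 summed, an alternative chosen after seeing the data, the ratio was 0.75, which reverses fat-7 because fat-6 makes up most of the sum. In vector-fed XO against wild type, fat-6 turned to -0.037 and sbp-1 to -0.133 when centred on the median of all genes, and to -0.048 and -0.144 when centred on the autosomal median.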
